A study of Mus musculus with 2 samples.

Results

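The genes described here encode secreted and membrane-bound proteases that cut the extracellular matrix, the Mmp and Adamts families, and the Timp inhibitors that hold them in check. Members were the genes whose symbol is Mmp, Adamts or Timp followed by a digit, and 31 of the 20002 genes in the table met this rule. There were 14 Mmp, 15 Adamts and 2 Timp genes. The level of each was compared between whole kidneys of control mice and of mice in which Regnase-2 (Reg-2), an RNase that degrades mRNA, was targeted.

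RNA was sequenced from kidneys of C57BL/6J mice, with 1 library from control mice and 1 from mice labelled Reg-2 CKO. The study's methods describe AAV9 with shRNA against Reg-2, injected into the tail vein at 11 weeks of age, and RNA taken at 14 weeks, while the injection methods give harvest at 16 weeks. Controls received AAV9 as an empty vector or with a control shRNA, depending on the passage of the methods. The labels call the CKO mice conditional knockouts of the proximal tubule, but no Cre driver is described for them. AAV9 is described as reaching mainly proximal tubules, and whole kidney also holds every other cell type of the organ. Whether a library is 1 mouse or a pool, and the sex of the mice, are not given in the sources used here.

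The matrix is remodelled by proteases that are made as inactive proenzymes and are opened by other proteases at the cell surface or in the interstitium. Mmp proteases cut collagens, fibronectin, laminins and elastin, whereas Adamts proteases cut proteoglycans, trim procollagens or process single plasma and cartilage proteins. Timp proteins bind the active site of these enzymes, and the balance between both sides is a classic subject in kidney fibrosis.

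Values were whole numbers, at least 35 in the control column and at least 51 in that of the CKO library. They were taken as reads plus a constant, and 34 and 50 were subtracted, which is an inference from the values. The control library then held 38851231 reads, with a median of 284 per gene, and the CKO library 43588721, with a median of 513.5. For scaling, each CKO value was multiplied by 0.667, the median gene ratio of control to CKO reads, and is then called scaled reads. A log2 ratio is log2 of scaled CKO reads plus 1 over control reads plus 1, and "rose" and "fell" are used for ratios of at least 2-fold. Intervals are exact 95% Clopper-Pearson intervals of the ratio without the added 1 and cover counting error only. They do so only if the values are unscaled reads once the constant is subtracted, whereas the authors call them normalized counts. With 1 library in each group, no difference has a replicate check and none was tested.

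Zc3h12b, the gene of Reg-2, had 47 control and 59 CKO reads. Its log2 ratio was -0.25, with an interval from -0.83 to 0.33, and it was 0.16 when the library totals were made equal and 0.42 on the deposited values. The interval included 0 and excluded a 2-fold fall, so no depletion of the target mRNA was seen in whole kidney. The label names the proximal tubule, and these reads do not separate its cells from others, so loss in those cells cannot be read here. By immunofluorescence, the study reports lower Regnase-2 in proximal tubules of CKO mice, a measure of protein that these libraries do not hold. The libraries are called control and CKO only as labelled. Markers of the proximal tubule had the most reads of the kidney cell lists in both libraries, led by Slc34a1, a phosphate transporter, with 147064 control and 98124 CKO reads.

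Promoters are shown for members whose position or level the results turn on. RefSeq sequence of GRCm38.p6, from 250 bases before to 50 bases after a transcript start, was at hand for 19 of the 31 members, as 21 windows. Each window was searched on both strands for TGAGTCA, the AP-1 element, for TATAAA, the TATA box, and for GGGCGG, the GC box. These motifs do not overlap with each other in the lines shown. Of 32851 promoters of the same length, 5.2% held the AP-1 element, 13.6% the TATA box and 35.7% the GC box, and 0.941% held both AP-1 element and TATA box. Among the member windows, 3 held both, those of Mmp13, Mmp12 and Mmp3, and no other window held the AP-1 element. These 3 genes lie next to each other among the members on chromosome 9, with 61.1 kb between the RefSeq gene bodies of Mmp13 and Mmp12 and 85.4 kb between those of Mmp12 and Mmp3. The lines give 100 bases before and 20 bases from the start on the plus strand, at chr9:7272414-7272533 for Mmp13, chr9:7347274-7347393 for Mmp12 and chr9:7445722-7445841 for Mmp3, with the motifs in capitals.
Mmp13: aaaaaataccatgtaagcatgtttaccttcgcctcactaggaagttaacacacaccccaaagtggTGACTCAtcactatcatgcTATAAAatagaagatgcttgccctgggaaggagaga
Mmp12: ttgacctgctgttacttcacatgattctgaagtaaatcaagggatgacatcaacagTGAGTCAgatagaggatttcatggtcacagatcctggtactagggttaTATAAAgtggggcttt
Mmp3: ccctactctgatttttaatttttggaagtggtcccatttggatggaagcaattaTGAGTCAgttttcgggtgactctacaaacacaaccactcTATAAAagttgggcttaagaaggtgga
The AP-1 element began at base -35 in Mmp13, where it reads on the opposite strand, at -44 in Mmp12 and at -46 in Mmp3. The TATA box began at -16 in Mmp13, at 5 in this Mmp12 window and at -7 in Mmp3, counted from the RefSeq start as base 1. A window at an upstream start of Mmp12 held none of the 3 motifs. GC content was 43.7% in the Mmp13 window, 40.7% in the Mmp12 window shown and 40% in that of Mmp3, against a median of 52.7% over all promoters. In the main setting Mmp12 and Mmp3 rose and Mmp13 fell, the latter just past 2-fold at -1.01 and short of it at -0.60 with equal totals. A match is a description of the sequence, not a site or a cause.

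The next lines show Adamts1, the member protease with the highest level, and Timp3, the member with the highest level of all. The Adamts1 line is from the minus strand at chr16:85803094-85803213 and the Timp3 line from the plus strand at chr10:86300312-86300431, again with the motifs in capitals.
Adamts1: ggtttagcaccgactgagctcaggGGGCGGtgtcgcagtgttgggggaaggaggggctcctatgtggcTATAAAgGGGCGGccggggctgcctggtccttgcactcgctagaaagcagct
Timp3: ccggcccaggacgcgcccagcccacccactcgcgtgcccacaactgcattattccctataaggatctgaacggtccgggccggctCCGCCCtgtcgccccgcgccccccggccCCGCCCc
The Adamts1 window held a TATA box at base -32 and 3 GC boxes over its 300 bases, while the Timp3 window held 2 GC boxes and no TATA box. GC boxes were found in 14 of the 21 member windows, and GC content outside the 3 windows with an AP-1 element ran from 38.7% in the upstream Mmp12 window to 77.3%.

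All 31 members reached 10 scaled reads in the control or the CKO library. Mmp9, Mmp16, Mmp19 and Mmp25 reached this level through the CKO library alone and Adamts17 through the control library alone, so the filter favours a difference for these 5. In the CKO library 11 of the 31 members (35.5%) rose, beside 13.4% of the 17469 genes that passed the same filter. Another 3 (9.68%) fell, beside 5.35% of those genes. The median log2 ratio of the members was 0.84, against 0.022 over all genes, and 23 of the 31 lay above 0. With equal library totals, 18 members were at least 2-fold higher and 0 lower, a share of 100% higher among those past the threshold instead of 78.6%. Over all genes that scaling put 21.9% higher and 2.47% lower. It moved the median of all genes to 0.44, and the members' median lay 0.79 above that, against 0.82 in the main setting. The members that equal totals added to those past 2-fold upward were Mmp9, Mmp11, Mmp16, Mmp23, Mmp25, Adamts10 and Timp2. The gap between the medians was smaller, 0.31, both on the deposited values and when no constant was subtracted before scaling. The members that rose were Mmp2, Mmp3, Mmp12, Mmp14, Mmp19, Adamts1, Adamts2, Adamts3, Adamts4, Adamts12 and Adamts16.

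**Figure D1:**
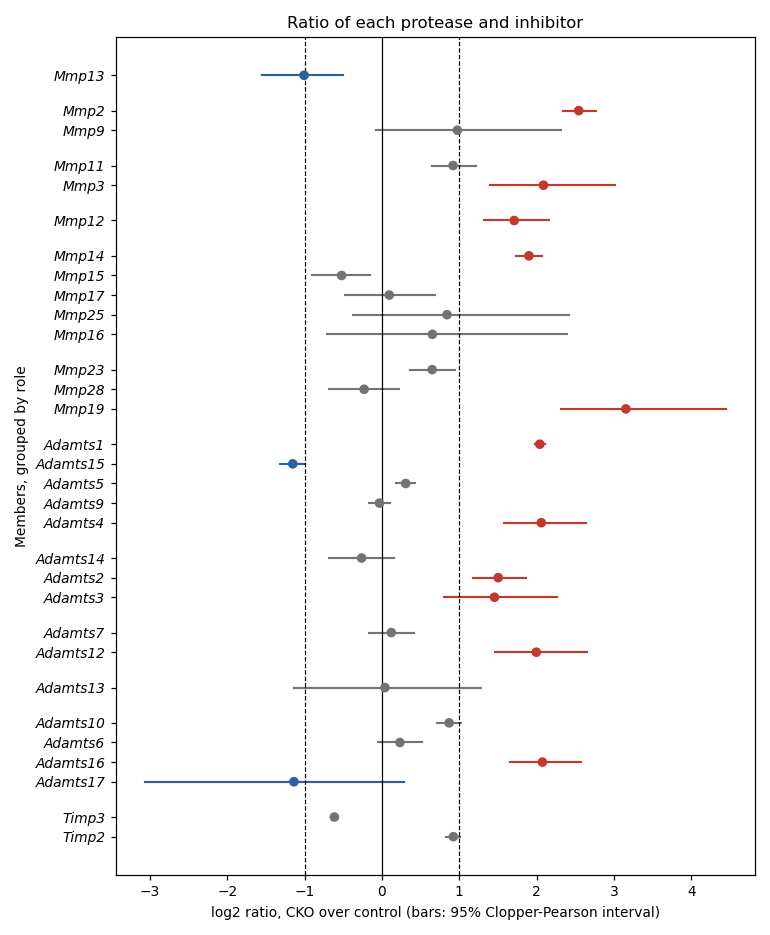
Log2 ratio of CKO over control for each of the 31 members, grouped by role, with exact 95% Clopper-Pearson intervals as bars and 2-fold as dashed lines. Red marks the 11 members past 2-fold upward, blue the 3 past 2-fold downward and grey the other 17.

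The gelatinases cut denatured collagen and basement membrane collagen. Mmp2, the gelatinase made mainly by stromal cells, had 199 control and 1749 CKO reads. It rose with a log2 ratio of 2.54 (interval 2.34 to 2.77), the second highest of the members. Mmp9, the gelatinase stored by neutrophils and made by macrophages, had 9 and 28 reads. Its log2 ratio of 0.98 lay just under the threshold, and its interval from -0.072 to 2.32 included 0. Without the added 1 the ratio was 2.07-fold. Mmp9 passed 2-fold with a pseudocount of 0.1, at 1.04, with the column minimum subtracted, at 1.06, and with equal totals, at 1.38.

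The membrane-type enzymes are anchored at the cell surface. Mmp14, which activates pro-Mmp2 together with Timp2, had 351 control and 1970 CKO reads. It was high in the CKO library, at a log2 ratio of 1.90 (1.74 to 2.07). The other 4 membrane-type members stayed within 2-fold in the main setting, but with equal totals Mmp25 was at 1.23 and Mmp16 at 1.04. Mmp15, a close relative of Mmp14, had 121 and 126 reads, with a log2 ratio at -0.52 (-0.90 to -0.15). It was at -0.11 with equal totals and at 0.18 on the deposited values, so its direction differed between settings. Mmp17 had 43 and 69 reads, a log2 ratio of 0.095. Mmp25, a leukocyte enzyme, had 7 and 20 reads, and Mmp16 had 6 and 15. With so few reads, the intervals of Mmp16, Mmp17 and Mmp25 included 0.

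The stromelysins, metalloelastase and collagenase on chromosome 9 did not move as a block. Mmp3, stromelysin 1, which cuts many matrix proteins and activates other Mmp proenzymes, had 16 control and 107 CKO reads. Mmp12, the macrophage metalloelastase, had 59 and 293 reads. Both were high in the CKO library, with log2 ratios of 2.09 (1.39 to 3.01) and 1.71 (1.32 to 2.16). With no constant subtracted before scaling, Mmp3 was at 1.06, just past the threshold, and Mmp12 at 1.30. Mmp13, a collagenase that opens the triple helix of fibrillar collagen, had 76 and 56 reads. It was low in the CKO library, at a log2 ratio of -1.01 (-1.55 to -0.51), just past the threshold. It was at -0.60 after the totals were equalized and at -0.053 on the deposited values, neither of them past 2-fold, while Mmp3 and Mmp12 passed 2-fold in both of these settings. Mmp11, stromelysin 3, which lies on chromosome 10, had 138 and 393 reads. Its log2 ratio of 0.92 (0.64 to 1.22) stayed under 2-fold in the main setting and was 1.34 with equal totals and 1.36 on the deposited values.

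The remaining Mmp members differ in structure and substrates. Mmp19, which cuts basement membrane proteins, had 9 control and 132 CKO reads. Its log2 ratio of 3.15 was the highest of the members in the main setting. However, the interval ran from 2.32 to 4.45 because of the 9 control reads. The ratio was 2.06 on the deposited values and 1.49 with no constant subtracted before scaling. Mmp23 had 142 and 335 reads, at 0.65 (0.37 to 0.95). Mmp28, also called epilysin, had 76 and 97 reads, at -0.23 (-0.68 to 0.22). Neither passed 2-fold here, but with equal totals Mmp23 did, at 1.07, and Mmp28 changed sign to 0.18.

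Among the Adamts members, the proteoglycan-cleaving enzymes cut aggrecan and versican. Adamts1 had 2049 control and 12652 CKO reads, the most of any member protease in both libraries. It rose with a log2 ratio of 2.04 and, from its many reads, a narrow interval of 1.97 to 2.11. Adamts4, an aggrecanase, had 36 and 230 reads. It was high in the CKO library as well, at 2.06 (1.58 to 2.64), and at 1.41 with no constant subtracted before scaling. Adamts5, the other main aggrecanase, had 817 and 1517 reads. At 0.31 (0.18 to 0.43) it did not pass 2-fold, although only 55.0 kb lie between its gene body and that of Adamts1 on chromosome 16. Adamts9 had 751 and 1102 reads and was at -0.032 (-0.17 to 0.10), and its sign turned with equal totals. Adamts15 had 828 and 558 reads. It was low in the CKO library, at a log2 ratio of -1.15 and a plain ratio of 0.449 (0.403 to 0.501), and was at -0.73 with equal totals, short of 2-fold.

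The procollagen N-proteinases remove the aminopropeptide of fibrillar procollagens. Adamts2, the main enzyme of this kind in skin, had 88 control and 377 CKO reads. Adamts3 had 21 and 89 reads. Adamts2 rose 2.86-fold (2.26 to 3.64). Adamts3 rose 2.83-fold as a plain ratio (1.74 to 4.79), and its log2 ratio with the added 1 was 1.46. However, Adamts3 was at 0.75 when no constant was subtracted before scaling. Adamts14 had 89 and 111 reads. It stayed at -0.26 (-0.68 to 0.15), and changed sign to 0.15 with equal totals.

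The pair that cuts cartilage oligomeric matrix protein was split. Adamts12 had 29 control and 178 CKO reads, and Adamts7 had 155 and 253. Adamts12 was high in the CKO library, 4.09-fold above control (2.75 to 6.29). Adamts7 was at 0.12 (-0.17 to 0.42), an interval that included 0. Adamts13, the protease of von Willebrand factor, had 11 and 17 reads and was at 0.040 (-1.14 to 1.28), so a difference was not detectable at this depth.

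Of the other Adamts members, Adamts16, known from studies of blood pressure in rats, had 47 control and 302 CKO reads. It rose at 2.08 (1.65 to 2.57). Adamts10, which binds fibrillin microfibrils, had 453 and 1242 reads, and Adamts6 had 161 and 284. These stood at 0.87 (0.71 to 1.03) and 0.23 (-0.050 to 0.52), within 2-fold in the main setting, but Adamts10 was at 1.29 with equal totals and 1.41 on the deposited values. Adamts17 had 10 and 6 reads. Its log2 ratio of -1.14 passed the threshold, but the interval from -3.07 to 0.28 included 0, and the deposited values gave 0.34.

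Of 4 listed Timp genes 2 were analysed here, and in the main setting neither passed 2-fold. Timp3, which is bound to the matrix and inhibits Adamts enzymes as well as Mmp, had 68104 control and 66717 CKO reads. Its log2 ratio was -0.61 (-0.63 to -0.60). Equal totals put it at -0.20 and the deposited values at -0.029, below 0 each time but by amounts that differed with the setting. Timp2, which inhibits Mmp2 and is also needed for its activation by Mmp14, had 1336 and 3803 reads. Its log2 ratio was 0.92 (0.83 to 1.02), just under the threshold, and 1.34 with equal totals. These 2 inhibitors therefore stood on opposite sides of 0 in the main setting.

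Levels between genes were compared per kilobase of the longest protein-coding transcript. Timp3 stood at 14423 control reads per kilobase and 9419 scaled CKO reads per kilobase. Adamts1 followed at 419.5 and 1727, then Timp2 at 360.2 and 683.6. The members at the next 3 places were Adamts15, Adamts10 and Mmp14 in the control library, and Mmp14, Mmp2 and Adamts10 in the CKO library. Mmp14 stood at 108.4 and 405.6, and Mmp2 at 64.7 and 378.8. The plot of levels shows that the order of the 3 members at the top was the same in both libraries while the places behind them changed.

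**Figure D2:**
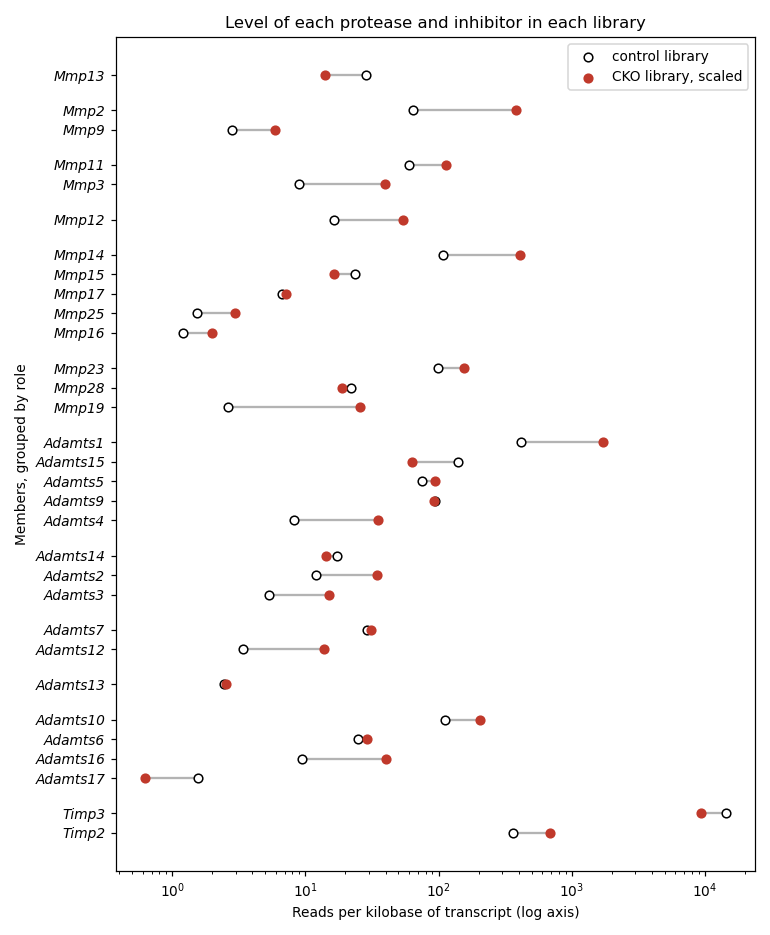
Reads per kilobase of each member on a log axis, with open circles for the control library and filled circles for the scaled CKO library, grouped by role. Timp3 lies far to the right of every other member in both libraries, and Adamts1 is the highest protease among the members.

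A share of reads inside a library does not depend on the scaling, but shares of genes with few reads depend on the constant subtracted. The inhibitors enter these shares only through Timp2 and Timp3. All members together held 0.196% of the control reads and 0.218% of the CKO reads. Of these member reads, Timp3 held 89.3% (89.1 to 89.6) in control and 70.4% (70.1 to 70.6) in CKO. The 29 proteases held 8.92% (8.71 to 9.12) and 25.6% (25.4 to 25.9). Adamts1 alone held 30.1% of the control protease reads and 52.0% of the CKO protease reads.

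Pairs were also set against each other in the same way. Their genes were chosen after their values were seen, mostly as a member that rose and a partner that did not, so the direction follows from the choice and the values are a description. Mmp2 made up 13.0% (11.3 to 14.7) of the control reads of Mmp2 and Timp2, and 31.5% (30.3 to 32.7) of the CKO reads. Mmp14 made up 20.8% (18.9 to 22.8) and 34.1% (32.9 to 35.4) of Mmp14 plus Timp2. Both proteases thus gained on Timp2, although Timp2 itself had a positive ratio. Adamts1 made up 2.92% (2.80 to 3.05) and 15.9% (15.7 to 16.2) of Adamts1 plus Timp3. Adamts4 made up 4.22% (2.97 to 5.80) and 13.2% (11.6 to 14.8) of the aggrecanase pair with Adamts5. On chromosome 9, Mmp3 made up 17.4% (10.3 to 26.7) of Mmp3 plus Mmp13 in the control and 65.6% (57.8 to 72.9) in the CKO library. On the deposited values the control share of Mmp3 was 31.2% and that of Adamts4 7.60%.

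**Figure D3:**
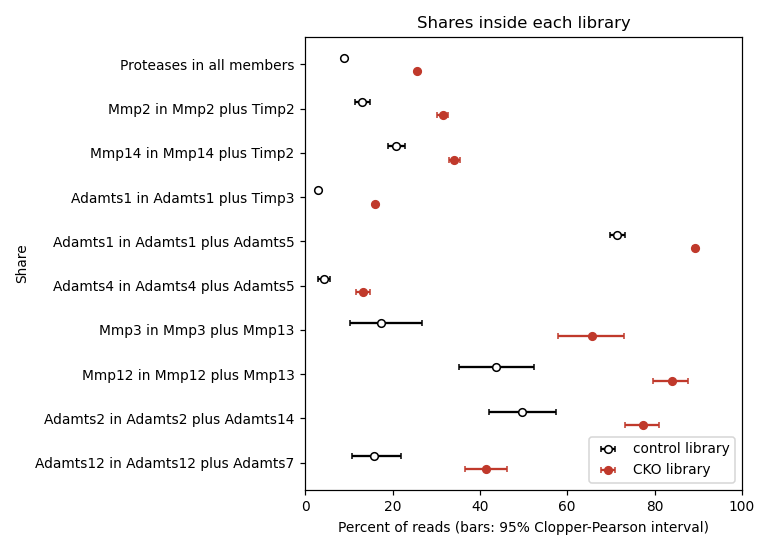
Share of the first-named gene in the reads of both genes of a pair, and of the proteases in all members, as points with exact 95% Clopper-Pearson intervals, open for control and filled for CKO. Pairs were chosen after their values were seen, and each share is higher in the CKO library, from 8.92% to 25.6% for the proteases.

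Other genes of matrix breakdown were read from fixed lists. In the main setting 13.4% of all genes rose and 5.35% fell, the shares to set beside these and the later marker counts. With equal totals 21.9% of all genes rose and 2.47% fell. On the deposited values it was 17.9% and 0.655%, and with no constant subtracted before scaling 5.98% and 2.31%. A rise counted with equal totals or on the deposited values includes the shift of all genes. Of 6 genes read from the plasminogen system, which activates several Mmp proenzymes, 2 rose and 1 fell, with a median log2 ratio of 0.82. With equal totals 4 rose and the median was 1.24, and on the deposited values 4 rose and it was 1.39. Serpine2, which encodes protease nexin, had 241 control and 1878 CKO reads and the highest ratio of these 6 at 2.37. Plau, the urokinase gene, had the most reads over both libraries, 12555 and 32414, at 0.78. Serpinf2, which encodes an inhibitor of plasmin, had 14414 and 5332 reads and was the lowest of these 6 at -2.02.

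Of 4 meprin and astacin genes 1 rose and 2 fell, with a median of -0.38. With equal totals 1 fell and the median was 0.034. Mep1a, a meprin of the proximal tubule brush border, had the most reads, 75052 and 44217, and was at -1.35. Mep1b, its partner subunit, had 8987 and 3940 reads and was the lowest at -1.77. Bmp1, which removes the carboxypropeptide of procollagens, had 343 and 1141 reads and was the highest at 1.15.

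Of 9 Adam genes, the membrane-anchored relatives of Adamts, 7 passed the filter and 2 of these rose, with a median of 0.36. Adam8, a leukocyte enzyme, had 19 and 236 reads and was the highest at 2.98. Adam9 had 3595 and 4366 reads, the most of the list over both libraries, at -0.30, and Adam15 was the lowest at -0.35 with 2411 and 2846 reads. These signs depend on the scaling, since equal totals put 8 of 8 genes above 0, at a median of 0.73, and on the deposited values it was 9 of 9, at 0.84. Of 6 Adamts-like genes, which resemble Adamts proteins but lack the protease domain, 5 passed the filter and all 5 rose, with a median of 1.49. With no constant subtracted before scaling, 4 of 6 rose and the median was 1.07. Adamtsl4 was the highest at 1.87 with 64 and 356 reads, Adamtsl1 the lowest at 1.14 with 114 and 379, and Adamtsl2 had the most reads, 437 and 1847.

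Among 6 other regulators of metalloproteinases, 1 rose and 0 fell, and their median was -0.029, or 0.39 with equal totals. A2m, a broad protease inhibitor, had 21 and 70 reads and was the highest at 1.12. It is the single rise, and 0 rose with a pseudocount of 10 or with no constant subtracted before scaling, whereas 2 rose with equal totals. Bsg, which encodes an inducer of Mmp expression, had the most reads, 17669 and 17501, at -0.60. Tfpi2, a protease inhibitor of the matrix, was the lowest at -0.74 with 729 and 656 reads.

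Of 17 matrix substrates, 10 rose and 0 fell, with a median of 1.20. Equal totals gave 14 that rose and a median of 1.62, and the deposited values 15 and 1.78. Col1a1, a chain of collagen I, had 288 and 2711 reads and was the highest at 2.65. Col4a1, a basement membrane collagen that gelatinases cut, had the most reads over both libraries, 8588 and 21250, at 0.72. Col4a3, of the mature glomerular basement membrane, was the lowest at -0.86 with 9313 and 7700 reads. Vcan, the versican gene and a substrate of Adamts1 and Adamts4, had 28 and 211 reads and was at 2.29.

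Markers of cells that could contribute these transcripts were read in the same libraries. Over all genes, 13.4% rose and 5.35% fell in the main setting. In a bulk sample, more cells of a type and more RNA per cell cannot be told apart. Of 8 macrophage markers 7 rose, with a median of 2.61, and the list summed to 3621 control reads and 15511 scaled CKO reads. Lyz2 had the most reads over both libraries, 518 and 9836, and the highest ratio at 3.66, and Csf1r was the lowest at 0.51 with 2244 and 4803. Of 7 fibroblast and pericyte markers 6 rose, with a median of 1.70 and sums of 4650 reads and 12115 scaled reads. Among them, Col1a1 and Dcn also belong to the matrix substrates above, so these lists share genes. Dcn had the most reads over both libraries, 1291 and 6232, Col1a1 was the highest, and Pdgfrb the lowest at 0.48 with 1513 and 3170. The part of either cell type in the ratios of the members was not tested.

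Of 10 listed neutrophil markers 4 were analysed here. Of these 2 rose and 1 fell, with a median of 1.21 and sums of 58 control reads and 178.0 scaled CKO reads. Csf3r was the highest at 2.37 with 22 and 177 reads, the most of the list, and Ltf, which passed the filter through the control library alone, the lowest at -1.58 with 16 and 7. On the deposited values 4 of the 4 lay above 0. With no constant subtracted before scaling 1 of the 4 rose, 0 fell and the median was 0.43. S100a9 had 13 and 64 reads and rose at 1.64, with a lower limit of 0.84. S100a8, a defining marker that passed the filter through the CKO library alone, had few reads, 7 and 19, at 0.77 (-0.46 to 2.35). Their part in the ratios of Mmp9 and Mmp25, the members known from neutrophils, was not tested.

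Of 8 proximal tubule markers 0 rose and 4 fell, with a median of -0.98 and sums of 457966 reads and 231263 scaled reads. With equal totals 2 fell and the median was -0.56, and on the deposited values 2 fell and it was -0.39. Slc7a13, an amino acid transporter, was the lowest at -2.95 with 34059 and 6624 reads, Slc5a12 was the highest at 0.41 with 25259 and 50338, and Slc34a1, with the most reads, was at -1.17. Of 6 markers of other nephron segments none passed 2-fold in the main setting, with a median of 0.14 and sums of 146348 reads and 180505 scaled reads. With equal totals 1 rose and the median was 0.56, and on the deposited values 2 rose and it was 0.72. In the main setting they ran from Calb1 at -0.58, with 4618 and 4625 reads, to Aqp2 at 0.79, with 4762 and 12359, and Umod had the most reads, 90047 and 187056. The 4 podocyte markers read here had a median of -0.015 and sums of 6397 reads and 6812 scaled reads. They ran from Nphs1 at -0.20, with 481 and 630 reads, to Synpo at 0.28, with 971 and 1767, and Podxl had the most, 4782 and 7595. The 6 endothelial markers had a median of -0.13 and sums of 10139 reads and 8837 scaled reads. They ran from Kdr at -0.67, with 2528 and 2390 reads, the most of the list over both libraries, to Emcn at 0.14, with 1621 and 2683. The podocyte and endothelial medians changed sign to 0.40 and 0.29 with equal totals. The part of these cells in the ratios of Timp3 and the other members was not tested.

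**Figure D4:**
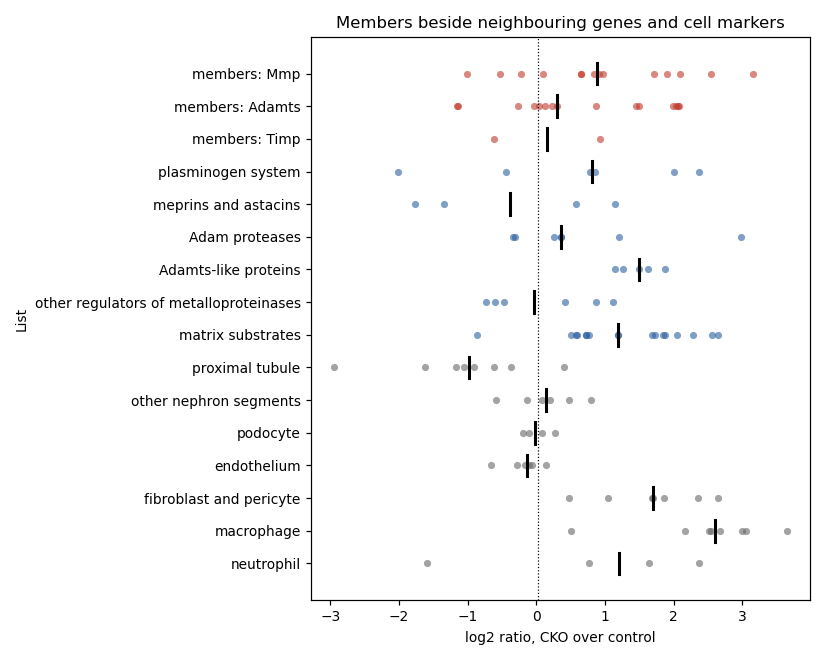
Log2 ratio of CKO over control for each gene that passed the filter, with members in red, other genes of matrix breakdown in blue and cell markers in grey. Black bars are list medians and the dotted line is the median of all genes, 0.022. Col1a1 and Dcn are plotted both as matrix substrates and as fibroblast and pericyte markers. Macrophage and fibroblast markers and Adamts-like genes lie to the right, and proximal tubule markers other than Slc5a12 to the left.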

How the data were processed

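The deposited table holds 1 value per gene for each of the 2 libraries, which the authors call normalized counts and whose unit is entered here as a score; by inference the values were read as reads plus a constant. The authors prepared stranded poly(A) libraries, used STAR 2.7.3a for alignment, HTSeq for counting and DESeq2 for normalization, and the submitters' processing notes name the build mm10. The column minimum minus 1 was subtracted, CKO reads were scaled by the median gene ratio, a pseudocount of 1 was added, and genes with fewer than 10 scaled reads in both libraries were left out. The fold threshold was 2. Members and lists were chosen with earlier results of these data known. By rule, values are given for each Timp member, each member past 2-fold and up to 4 members with the most reads per role (control plus scaled CKO), and for the highest, lowest and most abundant gene of each other list. Some genes that this rule covers are not reported here and were left out of their lists. The remaining members, Vcan and the pairs of genes were added after their values were seen. Transcript lengths came from GENCODE M21, and gene positions and promoters from RefSeq on GRCm38.p6. The steps were tested on simulated data. Python 3.11.15, numpy 2.4.6, pandas 2.3.3, scipy 1.17.1 and matplotlib 3.10.9 were used. Alternatives were other pseudocounts, filters, thresholds, scalings and constants.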

Additional observations from a re-analysis of the deposited data

How the results depend on the processing

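No paired analysis was possible because there was 1 library in each group. The main setting had 11 members at least 2-fold higher, 3 lower and a median log2 ratio of 0.84. At 1.5-fold 18 were higher and 4 lower, beside 21.8% and 13.9% of all genes. At 4-fold 6 were higher and 0 lower, beside 4.29% and 0.95%. Equal totals gave 18 higher, 0 lower and a median of 1.23, beside 21.9% higher and 2.47% lower over all genes. The values as deposited gave 15 higher, 0 lower and a median of 0.88. They put 17.9% of all genes higher and 0.655% lower, and moved the median of all genes to 0.57. Without a constant subtracted but with scaling, 10 were higher, 1 was lower and the median was 0.31. That setting put 5.98% of all genes higher and 2.31% lower. A pseudocount of 10 gave 11 higher, 1 lower and a median of 0.59, beside 10.4% higher and 3.73% lower over all genes. With a pseudocount of 0.1, 12 members were higher and 3 lower, beside 13.6% and 5.55% of all genes. Equal upper quartiles gave 12 and 2, beside 13.8% and 5.04%, and the median was 0.87 in both settings. With the column minimum subtracted, 12 of 29 members were higher and 2 lower, beside 13.5% and 5.6%, at a median of 0.91. At least 50 scaled reads left 25 members, with 11 higher and 2 lower, beside 11.2% and 4.29%, at a median of 0.92. Scaling by the median ratio of genes with at least 500 reads in both libraries, chosen after seeing the data, gave a median of 0.97. It moved the median of all genes to 0.16. With it 15 members were higher and 2 lower, beside 15.7% and 4.1% of all genes. Adamts17 turned positive, at 0.34, on the deposited values. Of the 11 higher members, 10 stayed at least 2-fold higher in all 8 other settings of scale, constant and pseudocount; the exception was Adamts3. Beyond the change of scale or threshold itself, the cause was not tested. Members with few reads, such as Mmp9, Mmp16, Mmp25, Adamts13 and Adamts17, have wide intervals, and a fall smaller than the shift between scalings has no fixed sign. The constant in each column was inferred, and members with few reads depend on it.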
